A study of Homo sapiens with 38 samples.

Results

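The genes described here are the molecular chaperones named by symbol as heat shock proteins (HSP70, HSP90, HSP110, HSP60, HSP10 and the small heat shock proteins), the DNAJA, DNAJB and DNAJC cochaperones, the subunits of the CCT chaperonin, and HSF1, the transcription factor that switches on heat shock genes. They were chosen by symbol alone among protein-coding genes, so no measured value entered the choice. The rule found 85 symbols among the 20800 protein-coding symbols of all tables. Of these, 79 were targeted in each of the pooled knockout screens, by 286 of 66758 guides in Hep3B and 291 of 66447 guides in SNU-398. The RNA-seq table held 86 entries for the 85 symbols among 19951 protein-coding entries, because HSPA14 is listed under 2 gene identifiers. HSPA1A, HSPA1B, HSPD1, HSPE1 and the readthrough entries DNAJC25-GNG10 and HSPB2-C11orf52 were measured only by RNA-seq and their knockout was not analysed here.

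The study looked for genes whose loss alters how liver cancer cells respond to targeted drugs. Hep3B and SNU-398, both human hepatocellular carcinoma cell lines made to express Cas9, were infected at low multiplicity with the TKOv3 genome-wide guide library. Guides were counted in cells collected before treatment (T0), in a second group named T1, and after 14 days with Sorafenib, Regorafenib or Lenvatinib (tyrosine kinase inhibitors), Erastin (an inducer of ferroptosis), Abemaciclib or Palbociclib (CDK4/6 inhibitors). Each of the 8 groups had 2 libraries per line, and a separate RNA-seq experiment compared 3 libraries labelled as PSTK-/- Hep3B with 3 labelled as wild-type control.

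T1 is taken here as the vehicle group, because it is the only group of each line whose title names no inhibitor and is not T0. The paper treated its vehicle group for 14 days, like the inhibitor groups, so T0 to T1 is taken as a change over 14 days. All 6 inhibitor groups of a line are compared with the same 2 T1 libraries, so the screens of a line are not independent of each other. The replicates of 15 of the 16 screen groups differed little beyond counting noise (chi-square per degree of freedom of 1.23 to 1.83 on halved counts), so p-values from them may measure only technical spread, and the exception was SNU-398 Erastin at 15.4. The PSTK-KO cells carried the deletion as a drug-selected pool made with a pair of guides on a lentivirus, and no clone was named. The paper calls the RNA-seq libraries of a group biological replicates, but describes no further knockout pool of Hep3B. RNA-seq p-values may therefore measure only the spread within that pool and its control. PSTK loss and other differences between the 2 cultures cannot be told apart. PSTK is the kinase that makes the precursor of selenocysteine, the amino acid of selenoproteins such as GPX4.

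Chaperones hold unfolded proteins until they fold. HSP70 proteins bind short greasy stretches and release them in a cycle that J-domain proteins (the DNAJ families) start by triggering ATP hydrolysis, and that HSP110 proteins and other exchange factors complete. HSP90 acts later on kinases and receptors, CCT encloses actin and tubulin in a double ring of 8 kinds of subunit, and small heat shock proteins hold aggregating proteins without ATP. The endoplasmic reticulum has its own set, led by HSPA5 (BiP) and HSP90B1 (GRP94), and mitochondria have HSPA9, HSPD1 and HSPE1.

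Library totals ranged from 11198022 to 46376708 guide counts in the screens and from 15404153 to 16851558 gene counts in RNA-seq. SNU-398 Erastin replicate 2 stood apart: its log2 guide counts correlated at 0.960 with those of a Hep3B T1 library and at 0.956 with those of a SNU-398 T1 library. For Erastin replicate 1 the same correlations were 0.896 and 0.956, and values that rest on this pair are given with and without replicate 2. RNA levels did not bear out the RNA-seq labels in 2 checks, of the knockout and of the cell type. The paper reports PSTK loss in its knockout Hep3B cells by Western blot, and RNA levels do not test that protein result. PSTK itself stood at 4.78, 5.09 and 4.14 CPM (normalised read counts scaled to a common library size) in the control libraries and at 4.0, 4.34 and 5.07 CPM in the PSTK-KO libraries, and was not called different (log2 fold change −0.06, edgeR adjusted p = 0.84), although gene-level counts cannot show an edited allele. Of 8 hepatocyte markers, ALB lay between 1.46 and 2.33 CPM in controls and between 0 and 0.0635 CPM in PSTK-KO, AFP was at 0 in all control libraries, and TTR was at 0 in all 6 libraries. FGB went the other way, from between 0 and 0.182 CPM to between 0.612 and 0.699 CPM (log2 fold change 2.55, edgeR adjusted p = 0.0054), and APOB, SERPINA1, TF and APOA1 stayed at or below 0.692 CPM and were not tested. Of 8 markers of other cell types, COL1A1 (32.9 to 38.3 CPM in controls), PDGFRB (21.8 to 23.8 CPM) and VWF (8.18 to 9.88 CPM) were counted in every library and were lower in PSTK-KO, with log2 fold changes of −0.55, −0.55 and −0.66. The rest were at or near 0, with COL3A1 at most at 0.583 CPM, PECAM1 at most at 0.121 CPM, CD68 at most at 0.0612 CPM, and PTPRC and CD3E at 0 in all libraries. Groups are therefore named below by their labels, and the part of these markers in the chaperone results was not tested.

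The largest RNA-seq changes of abundant members were those of HSPA5 and HSP90B1, and several cytosolic heat shock genes rose by less, so promoter stretches of these genes that hold a known stress motif are shown first. RefSeq promoters (GRCh38.p14, 250 bases before to 50 after each gene's start) were searched for the endoplasmic reticulum stress element, CCAAT and CCACG with 9 bases of any kind between them, and for a heat shock element, GAANNTTC, on both strands. The heat shock element is its own reverse complement, and the stress element contains a CCAAT box, a common promoter motif. Capitals mark the fixed letters of each match, and each stretch reads 5′ to 3′ on the gene's strand.

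The stress element was found in 27 of 35116 promoters (0.0769%) and in 2 of the 95 promoters of chaperone members (2.11%). Among the 74 chaperone symbols with a promoter in the table, it was found in HSPA5 (9:125241361-125241439, minus strand, bases −96 to −18) and in HSP90B1 (12:103930186-103930369, plus strand, bases −224 to −41, with 2 matches, the second on the other strand).
HSPA5: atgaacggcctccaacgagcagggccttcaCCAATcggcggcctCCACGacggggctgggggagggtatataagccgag
HSP90B1: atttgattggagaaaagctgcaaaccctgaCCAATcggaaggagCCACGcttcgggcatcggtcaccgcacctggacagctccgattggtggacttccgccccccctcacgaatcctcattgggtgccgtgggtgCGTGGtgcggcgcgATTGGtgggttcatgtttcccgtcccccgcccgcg

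The heat shock element was found in 2377 of all promoters (6.77%) and in 20 of the 95 promoters of chaperone members (21.1%). Counted by symbol, with a match in any promoter of the symbol, these were 19 of the 74 chaperone symbols. Stretches are printed for 5 of the 9 symbols that hold it and were higher in PSTK-KO, at 14:102087090-102087157 (HSP90AA1, minus strand), 9:33025045-33025112 (DNAJA1, plus), 6:31815407-31815474 (HSPA1A, plus), 6:31827603-31827670 (HSPA1B, plus) and 7:76302461-76302528 (HSPB1, plus). The other HSP90AA1 promoter of the table has no match. A further DNAJA1 match, after the gene's start, and the stretches of DNAJB6, HSPA6, HSPD1 and TCP1 are not printed.
HSP90AA1: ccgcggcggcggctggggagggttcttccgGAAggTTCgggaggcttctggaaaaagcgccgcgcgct
DNAJA1: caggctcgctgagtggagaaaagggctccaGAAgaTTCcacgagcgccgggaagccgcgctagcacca
HSPA1A: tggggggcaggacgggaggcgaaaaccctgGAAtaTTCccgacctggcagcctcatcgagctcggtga
HSPA1B: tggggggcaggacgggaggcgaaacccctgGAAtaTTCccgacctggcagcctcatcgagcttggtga
HSPB1: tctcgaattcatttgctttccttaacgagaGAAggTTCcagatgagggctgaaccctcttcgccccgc

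The HSPA1A and HSPA1B stretches are nearly identical, as are the genes, so reads may be split between them and their separate values are uncertain. A match is only a run of letters and says nothing of binding in these cells.

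The first comparison asked which chaperone genes differed between the libraries labelled PSTK-KO and control. Among members of at least 10 CPM the largest rises were those of HSPA5 at 2.06-fold, HSP90B1 and DNAJB11, all of the endoplasmic reticulum, and the cytosolic HSP90AA1, HSPA1A, HSPA1B, HSPB1 and several CCT subunits rose by at most 1.35-fold. As a list, the genes of the endoplasmic reticulum had the same median log2 fold change as all members (0.07 each), and 14 of the 21 higher calls were in neither that list nor the mitochondrial one. Of the 72 members with enough counts to be tested, 21 were higher in PSTK-KO (29.2%, against 15.6% of the 15370 genes tested), 8 were lower (11.1%, against 17.2%) and 43 were not called by edgeR's quasi-likelihood test at an adjusted p under 0.05. The other 14 entries, among them CCT6B, HSPB2, HSPB3, HSPB6, DNAJB7 and DNAJC28, had too few counts. The median log2 fold change was 0.07 over the members tested and −0.00 over all genes tested. Members took 1.65 to 1.71% of all counts in the control libraries and 2.05 to 2.06% in the PSTK-KO libraries. In bulk RNA a change in the mix of cells and a change in RNA per cell cannot be told apart.

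**Figure D1:**
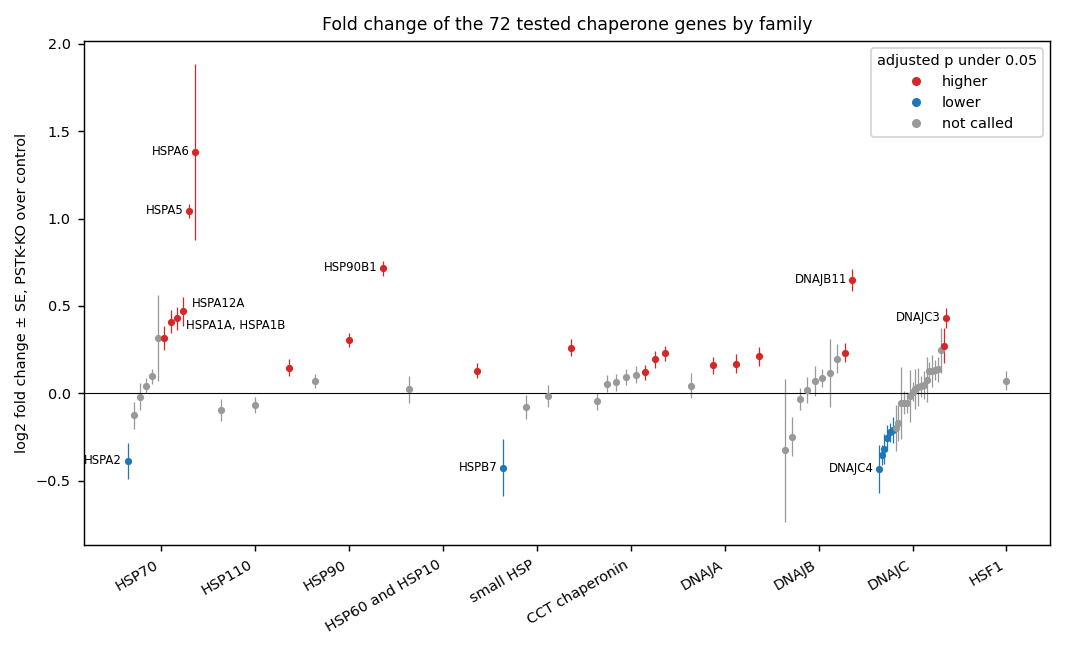
The log2 fold change ± SE of each tested chaperone gene (PSTK-KO over control, y axis) is plotted by family, with higher calls in red, lower calls in blue and the rest in grey. HSPA5 and HSP90B1 lie at 1.04 and 0.71, the CCT, HSP90 and DNAJA families hold no lower call, and 6 of the 8 lower calls are DNAJC genes.

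On the length-corrected scale (FPKM), HSP90AB1, the constitutive cytosolic HSP90, had the highest level in both groups, at 611 ± 18.2 FPKM in controls and 643 ± 4.51 FPKM in PSTK-KO (SD, n = 3 each). HSPA8, the constitutive cytosolic HSP70, followed in controls at 434 ± 28.4 FPKM, and HSP90AA1, the inducible HSP90, came next at 403 ± 9.11 FPKM. HSPB1, HSPD1 and HSPA5 stood at 237 ± 12.9, 237 ± 10.6 and 229 ± 2.60 FPKM in controls and did not differ in level beyond their spread. In PSTK-KO the order below HSP90AB1 was HSP90AA1 at 499 ± 9.27 FPKM, HSPA5 at 472 ± 7.39 FPKM and HSPA8 at 465 ± 6.89 FPKM, and the last 2 did not differ beyond their spread.

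Among the genes of the endoplasmic reticulum, HSPA5, the HSP70 of that compartment, stood at 887, 903 and 914 CPM in the control libraries and at 1890.0, 1843 and 1835 CPM in the PSTK-KO libraries. HSP90B1, its HSP90, stood at 668, 710.0 and 696 CPM against 1152, 1136 and 1115 CPM. The groups did not overlap for either gene, and the log2 fold changes were 1.04 (SE 0.04, edgeR adjusted p = 8.8e-20) and 0.71 (SE 0.04, adjusted p = 7.1e-15). DNAJB11, a J-domain partner of HSPA5, rose from 47.7, 51.4 and 49.7 CPM to 76.7, 77.3 and 79.1 CPM (log2 fold change 0.65, SE 0.06, edgeR adjusted p = 6e-10). DNAJC3, another luminal J-domain protein that also restrains the kinase PERK, rose from between 87.6 and 96.5 CPM to between 119 and 126 CPM (log2 fold change 0.43, edgeR adjusted p = 3.3e-07). HSPA13, a microsomal HSP70, rose by 0.32 on the same scale (edgeR adjusted p = 0.00043). The rise was not shared by all 13 tested genes of this list, of which 5 were higher and 1 lower (38.5% and 7.69%, against 15.6% and 17.2% of all genes). DNAJC1, a membrane J-domain protein that binds HSPA5, fell from 29.6, 28.3 and 27.8 CPM to 23.9, 22.4 and 22.3 CPM (log2 fold change −0.32, edgeR adjusted p = 0.0039). DNAJB9, a cofactor that restrains the stress sensor IRE1 through HSPA5, stood at 15.8, 17.5 and 15.9 CPM in controls and at 13.2, 14.3 and 13.9 CPM in PSTK-KO, and was not called (log2 fold change −0.25, edgeR adjusted p = 0.084). Its groups did not overlap, with every control library above every PSTK-KO library, the opposite order to that of HSPA5.

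**Figure D2:**
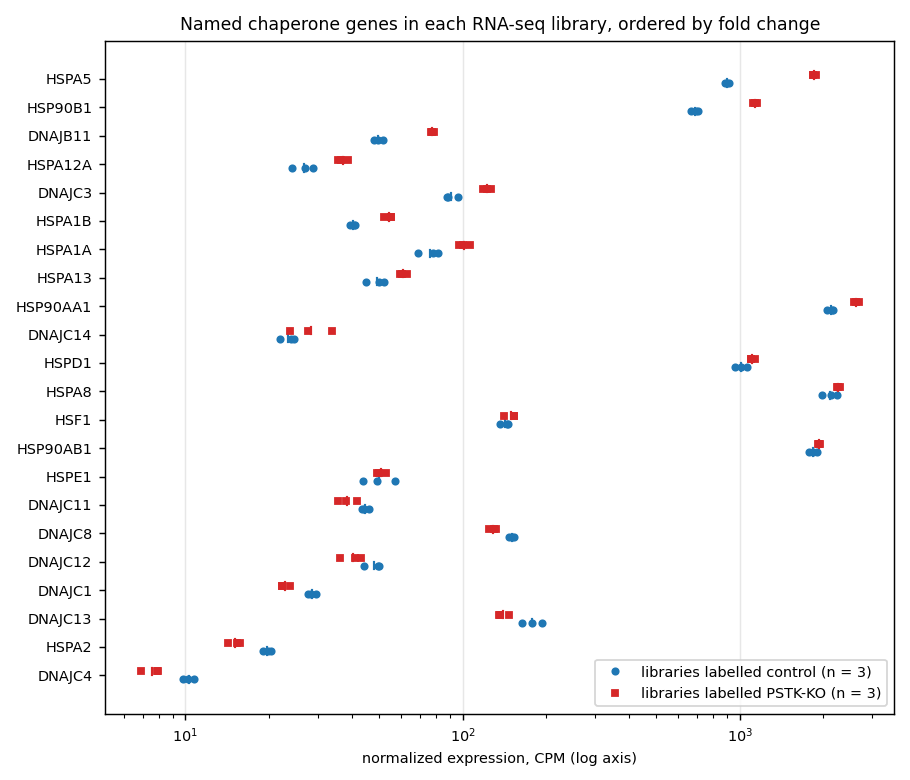
CPM of single libraries (x axis, log scale) are plotted for named chaperone genes in order of fold change, with the 3 control (circles) and 3 PSTK-KO (squares) libraries as separate points and the group means as bars. The PSTK-KO points of HSPA5, HSP90B1 and DNAJB11 all lie above the control points, while those of HSF1 and HSPA8 overlap the control range.

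Cytosolic HSP70 and HSP90 genes showed smaller differences. HSP90AA1 stood at 2072, 2166 and 2155 CPM in controls and at 2628, 2684 and 2592 CPM in PSTK-KO (1.24-fold, edgeR adjusted p = 1.6e-07). HSPA1A, the stress-inducible HSP70, stood at 81.3, 69.1 and 78.1 CPM against between 97.2 and 106 CPM (1.33-fold, edgeR adjusted p = 4.3e-06), and its near copy HSPA1B at 39.3, 40.4 and 40.9 CPM against 55.0, 55.2 and 52.2 CPM (1.35-fold, edgeR adjusted p = 6.1e-06). In all 3 genes every PSTK-KO library lay above every control library. The constitutive genes did not pass the test. HSPA8 had 2129, 2246 and 1986 CPM in controls and 2263, 2299 and 2236 CPM in PSTK-KO, with overlapping groups (edgeR adjusted p = 0.086). HSP90AB1 had 1773, 1837 and 1897 CPM against 1926, 1911 and 1941 CPM, without overlap but also without a call (edgeR adjusted p = 0.20). HSF1, the regulator, had 146, 136 and 145 CPM against 154, 142 and 154 CPM (log2 fold change 0.07, SE 0.05, edgeR adjusted p = 0.34), and DNAJB1, the J-domain protein that the heat shock response induces, had 134, 139 and 143 CPM against 149, 145 and 149 CPM (edgeR adjusted p = 0.21). Of the 12 tested HSP70 genes 6 were higher (50%, against 15.6% of all genes) and 1 was lower (8.33%, against 17.2%). The lower one was HSPA2, best known from the testis, at 20.4, 19.8 and 19.0 CPM against 14.2, 15.3 and 15.7 CPM (log2 fold change −0.39, edgeR adjusted p = 0.0039). HSPA12A, a distant relative of HSP70, rose from between 24.2 and 28.8 CPM to between 35.6 and 38.7 CPM (log2 fold change 0.47). HSPA6, a strictly inducible HSP70, was called higher on only 67 counts over all libraries, at most 24 in a single one, and was singled out after its values were seen, because it falls under the minimum of 10 CPM used to name genes. It had 0.503, 0.485 and 0.130 CPM in controls and 0.699, 0.856 and 1.40 CPM in PSTK-KO (log2 fold change 1.38, SE 0.51, edgeR adjusted p = 0.034).

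Of the 8 tested CCT genes, 3 were higher (37.5%, against 15.6% of all genes), none was lower (against 17.2%) and 5 were not called. CCT3 had 577, 551 and 577 CPM in controls and 678, 664 and 655 CPM in PSTK-KO (log2 fold change 0.23, edgeR adjusted p = 0.00012). TCP1, the first subunit of the ring, had 294, 279 and 299 CPM against 342, 326 and 329.7 CPM (0.19, edgeR adjusted p = 0.0019), and CCT5 had 901, 903 and 922 CPM against 999.9, 984 and 977 CPM (0.12, edgeR adjusted p = 0.026). The groups did not overlap for any of the 3, and each difference was small beside that of HSPA5.

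Of 9 tested genes of the mitochondrial list 2 were higher, HSPD1 and DNAJA3, and 2 lower, DNAJC4 and DNAJC11 (22.2% each, against 15.6% and 17.2% of all genes). DNAJC4 and DNAJC11 are described with the J-domain genes. HSPD1, the mitochondrial HSP60, had 965, 1011 and 1064 CPM in controls and 1099, 1133 and 1094 CPM in PSTK-KO (log2 fold change 0.13, edgeR adjusted p = 0.022), and this call was lost on leaving out control replicate 1, PSTK-KO replicate 1 or PSTK-KO replicate 2 (log2 fold changes 0.10, 0.14 and 0.12). Its cochaperonin HSPE1, which lies within the HSPD1 span on the opposite strand, had 43.6, 49.1 and 57.0 CPM against 50.1, 49.2 and 52.7 CPM and was not called (edgeR adjusted p = 0.86). Counting by strand is not stated for these data, so reads of the pair may be mixed. HSPA9, the mitochondrial HSP70, was not called either (log2 fold change 0.04, edgeR adjusted p = 0.51).

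Among small heat shock proteins HSPB1 (HSP27) rose from 391, 367 and 413 CPM to 489, 462 and 452 CPM (1.20-fold, edgeR adjusted p = 9.1e-05), and HSPB7, known from heart muscle, fell from 8.30, 6.73 and 7.38 CPM to 6.48, 5.38 and 4.84 CPM (log2 fold change −0.43, edgeR adjusted p = 0.042). HSPH1, an HSP110 exchange factor, was higher at 339, 356 and 345 CPM than the 303, 328 and 309 CPM of the controls (log2 fold change 0.15, edgeR adjusted p = 0.018). Each of these groups stayed apart from its counterpart.

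Of the 39 tested J-domain genes together, 7 were higher (17.9%, against 15.6% of all genes) and 6 lower (15.4%, against 17.2%). These shares lie near those of all genes, and the counts by family are given as a description. In DNAJA, the type I cochaperones of cytosolic and mitochondrial HSP70, 3 of 4 tested genes were higher, among them the mitochondrial DNAJA3 (log2 fold change 0.17), and DNAJA1 went from 219, 222 and 234 CPM to 249.8, 256 and 248 CPM (log2 fold change 0.16, edgeR adjusted p = 0.012). In DNAJB 2 of 10 were higher, DNAJB11 and DNAJB6, a suppressor of polyglutamine aggregation (log2 fold change 0.23, edgeR adjusted p = 0.0014). In DNAJC, whose members share little beyond the J domain, 2 of 25 were higher and 6 lower. DNAJC13, an endosomal protein, fell from 178, 194 and 164 CPM to 136, 147 and 137 CPM (log2 fold change −0.35, edgeR adjusted p = 1.2e-05). DNAJC8, a splicing-associated protein, fell from 147, 150.3 and 154 CPM to 130.2, 124 and 132 CPM (log2 fold change −0.22, edgeR adjusted p = 0.0012). The groups did not overlap for either gene. DNAJC4, DNAJC12 and DNAJC11, of which the last belongs to the mitochondrial inner membrane organizing machinery, had log2 fold changes of −0.43, −0.26 and −0.21, and each lost its call when PSTK-KO replicate 2 was left out (−0.37, −0.19 and −0.16). DNAJC11 also lost it without control replicate 1, control replicate 3 or PSTK-KO replicate 1 (−0.21, −0.19 and −0.20). Without that library the members lower in PSTK-KO were 4 instead of 8. DNAJC14 was called higher (log2 fold change 0.27, edgeR adjusted p = 0.036) although its groups overlapped, at 24.7, 24.0 and 21.9 CPM against 23.8, 33.8 and 27.6 CPM, and without PSTK-KO replicate 2, control replicate 1 or control replicate 3 it stood at 0.13, 0.31 and 0.22 and was not called.

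Heat shock elements were counted against these calls as a description. They were present in the promoters of 9 of 21 symbols that were higher, 0 of 7 that were lower, 8 of 36 that were not called and 2 of 10 that were not tested. The 9 were DNAJA1, DNAJB6, HSP90AA1, HSPA1A, HSPA1B, HSPA6, HSPB1, HSPD1 and TCP1. HSPA8, HSP90AB1 and DNAJB1 held the element and were not called, so the letters alone did not separate the groups. Both symbols with the stress element, HSPA5 and HSP90B1, were also the members above 10 CPM with the largest log2 fold changes. DNAJB11 and DNAJC3, also higher genes of the endoplasmic reticulum (log2 fold changes 0.65 and 0.43), held no match to it. The part of either element in these changes was not tested.

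Chaperone partners that do not carry these family names were taken from a list of exchange factors, HSP90 cochaperones, prefoldins and related genes, of which 60 were tested, 17 were higher and 7 were lower. These shares were 28.3% and 11.7%, against 15.6% and 17.2% of all genes. SDF2L1, a luminal partner of HSPA5 and its J-domain proteins, had the largest increase and went from between 36.4 and 41.5 CPM to between 75.7 and 76.8 CPM (1.96-fold), and HYOU1, the luminal HSP110-like exchange factor, from between 145 and 165 CPM to between 245 and 252 CPM (log2 fold change 0.71). SIL1, another exchange factor of HSPA5, singled out after its values were seen, fell from between 27.3 and 29.2 CPM to between 20.8 and 23.8 CPM (log2 fold change −0.35, edgeR adjusted p = 0.0026). CHORDC1, an HSP90 cochaperone, went from between 142 and 167 CPM to between 198 and 215 CPM (log2 fold change 0.39). Among HSP90 cochaperones 6 of 17 were higher (35.3%, against 15.6% of all genes) and none lower (against 17.2%). HSF4, a heat shock factor of the lens, fell by 1.34 on the log2 scale, from between 18.4 and 28.3 CPM to between 7.52 and 10.8 CPM. CRYAB, a small heat shock protein of lens and muscle, and BAG1, an HSP70 exchange factor, fell by 0.67 and 0.61.

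The second comparison asked which chaperone knockouts were depleted or enriched between T0 and T1, without inhibitor. Guides against chaperones were lower at T1 more often than higher, in both lines, with CCT subunits, HSPA9, HSPA8 and HSP90B1 among the lower genes of Hep3B. With guide counts summed per gene, 38 of 79 members were lower in Hep3B (48.1%, against 36.1% of all genes) and 22 were higher (27.8%, against 32.8%) by edgeR at an adjusted p under 0.05. In SNU-398, 26 were lower (32.9%, against 23.6%) and 10 higher (12.7%, against 22.4%). The median log2 fold change was −0.14 in Hep3B, where it was −0.02 over all genes, and −0.08 in SNU-398, where it was −0.01, and neither median of the members moved to 2 decimals with DNAJC22 of SNU-398 set at its bound. Leaving out T0 replicate 1 of SNU-398 brought its counts to 14 lower and 4 higher, and leaving out T1 replicate 1 brought its higher count to 6.

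By NormZ, few members passed. This score sums the changes of a gene's guides, each divided by the spread of guides of like abundance, and does not measure whether the guides agree. At a one-sided p under 0.01, 0 of 79 members were lower and 0 higher in Hep3B (against 1.05% and 1.2% of all genes), where at an adjusted p under 0.05 edgeR called 38 and 22. In SNU-398, 2 members were lower by NormZ (against 1.31% of all genes), CCT2 at −2.78 and DNAJC1 at −2.34, and 0 were higher (against 1.01%). NormZ lay below 0 for 51 members in Hep3B (64.6%, against 51.1% of all genes) and for 53 in SNU-398 (67.1%, against 49.9%).

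Guides with no human target gave a background from the same libraries. They have no site to cut in the human genome, and the same values over guides against all genes were not computed. A difference from control guides can therefore not be called particular to chaperone guides. Of the chaperone guides with a mean T0 count of at least 30, the median log2 change was −0.26 over 155 guides in Hep3B, and 0.09 over 62 control guides. In SNU-398 it was −0.18 over 162 chaperone guides and 0.16 over 61 control guides. Changes below 0 made up 61.3% of chaperone guides and 41.9% of control guides in Hep3B, and 69.1% and 36.1% in SNU-398. Many guides were lost altogether, and control guides were lost as well. In Hep3B, 4.55 to 5.94% of the chaperone guides were at 0 in the T0 libraries and 36.01 to 36.4% in the T1 libraries, where 38.6% of control guides were at 0. In SNU-398, 24.7 to 28.5% of chaperone guides and 21.5 to 30.4% of control guides were at 0 at T1. The part of this loss in the values of single genes was not tested.

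**Figure D3:**
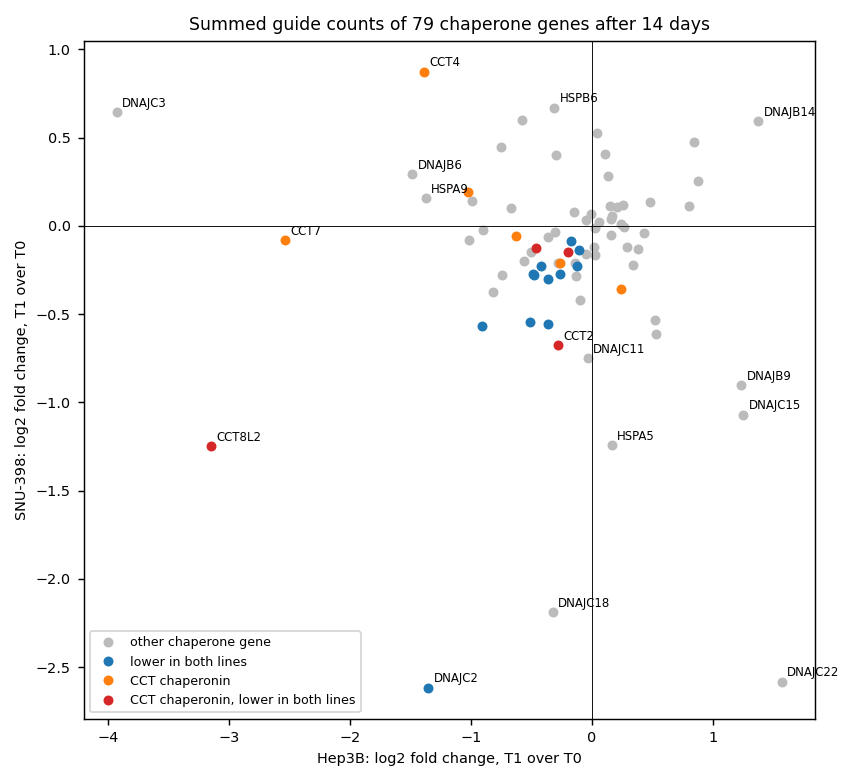
Each point is a chaperone gene, with its log2 fold change from T0 to T1 in Hep3B on the x axis and in SNU-398 on the y axis, and colors mark CCT genes and genes lower in both lines. TCP1, HSPA9 and HSP90B1 lie at −1.02, −1.37 and −0.90 in Hep3B and at 0.19, 0.16 and −0.02 in SNU-398, while DNAJC22, at 0 counts at T1 in SNU-398, is drawn at its bound.

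Among the CCT genes, the ring subunits with their relatives CCT6B and CCT8L2, 8 of 10 were lower at T1 in Hep3B (80%, against 36.1% of all genes). In SNU-398 5 of 10 were lower (50%, against 23.6%). In each line 1 was higher (10%, against 32.8% of all genes in Hep3B and 22.4% in SNU-398). TCP1, summed over 3 guides, went from 20.6 and 21.3 CPM at T0 to 9.91 and 10.9 CPM at T1 in Hep3B (log2 fold change −1.02, SE 0.12, edgeR adjusted p = 2.9e-13), with 3 of 3 guides lower. In SNU-398 it had 18.4 and 19.6 CPM against 21.5 and 21.8 CPM and was not called (0.19, edgeR adjusted p = 0.14). CCT7 went from 3.63 and 2.67 CPM to 0.661 and 0.335 CPM in Hep3B (−2.54) and had 3.85 and 2.35 against 2.66 and 3.49 CPM in SNU-398 (−0.08, not called). CCT3, with the deepest guides of the family, was lower in both lines, from 284 and 291 CPM to 212 and 205 CPM in Hep3B (−0.46) and from 269 and 259 CPM to 244 and 239 CPM in SNU-398 (−0.13). CCT2 was lower in SNU-398 from 36.4 and 41.3 CPM to 22.7 and 26.3 CPM (−0.68), where 3 of 3 counted guides fell. In Hep3B CCT2 was called lower (−0.28) on the sum, but without its most abundant guide the change was 0.67, and the CCT5 change of −0.20 became 0.89 in the same way. CCT8 in Hep3B (−0.63) rested on a single guide that held 99.3% of its T0 counts. CCT4 was lower in Hep3B (2.48 and 2.53 CPM to 0.826 and 1.17 CPM, −1.39) and higher in SNU-398 (1.56 and 0.881 CPM to 2.47 and 2.09 CPM, 0.87, edgeR adjusted p = 0.048), on few counts in both. The CCT4 call of SNU-398 was lost without either T0 library or T1 replicate 1 (1.38, 0.56 and 0.72). CCT6A was called in neither line (−0.27 and −0.21), and its relative CCT6B was higher in Hep3B (0.24) and lower in SNU-398 (−0.36). The small changes of this family depended on single libraries. In Hep3B the CCT2 call was lost without T1 replicate 1 (−0.19), that of CCT5 without T0 replicate 2 (−0.13) and that of CCT6B without either (0.15 and 0.23). In SNU-398 the CCT3 call was lost without T0 replicate 1 (−0.10), and that of CCT5 without either T0 library or T1 replicate 1 (−0.17, −0.13 and −0.08). CCT8L2 was lower in both lines (−3.15 and −1.25), with at most 2.25 CPM in any T0 library.

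In the HSP70 family 3 of 10 genes were lower (30%, against 36.1% of all genes) and 2 higher (20%, against 32.8%) in Hep3B. In SNU-398 4 were lower (40%, against 23.6%) and 1 higher (10%, against 22.4%). HSPA9 went from 14.8 and 12.5 CPM to 4.87 and 6.04 CPM in Hep3B (log2 fold change −1.37, SE 0.16, edgeR adjusted p = 6.5e-14), and all 3 guides with enough counts fell. In SNU-398 it had 8.35 and 10.2 CPM against 9.80 and 10.8 CPM (0.16, not called). HSPA8 went from 27.3 and 27.4 CPM to 19.7 and 16.8 CPM in Hep3B (−0.56) and was not called in SNU-398 (−0.20). HSPA5, the gene with the largest RNA difference above 10 CPM, had 7.90 and 9.47 CPM against 10.1 and 9.05 CPM in Hep3B and was not called (0.16). In SNU-398 it went from 4.63 and 4.63 CPM to 2.20 and 1.57 CPM (−1.24), but 1 of its guides held 99.5% of the T0 counts. HSP90B1 was lower in Hep3B, from 26.7 and 25.2 CPM to 13.7 and 14.3 CPM (−0.90), and was not called in SNU-398 (−0.02). All 3 HSP110 genes were lower in Hep3B (against 36.1% of all genes) and 2 in SNU-398 (66.7%, against 23.6%). HSPH1 was lower in both, by −0.49 and −0.27, with 2 of 2 counted guides lower in each line. HSF1 was not called in either line (0.02 and −0.12).

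Both lines called 16 members lower and 4 higher. The matching shares of all genes were not computed, so these counts do not set the members apart from other genes. The 16 were CCT2, CCT3, CCT5, CCT8L2, DNAJA3, DNAJB5, DNAJC1, DNAJC2, DNAJC5B, DNAJC10, DNAJC17, DNAJC25, HSPA4, HSPA12A, HSPB11 and HSPH1. DNAJA3, the mitochondrial DNAJA, had 2 of 2 counted guides lower in each line, at 52.5 and 48.7 CPM against 39.6 and 39.4 CPM in Hep3B (−0.36) and 47.5 and 44.6 CPM against 31.5 and 31.2 CPM in SNU-398 (−0.56). DNAJC10, a disulfide reductase of the endoplasmic reticulum, also had all its counted guides lower in both lines (−0.42 and −0.23). DNAJC17, a splicing-linked protein, fell by 0.48 and 0.28. DNAJC2, which works at the ribosome, went from 1.67 and 2.10 CPM to 0.661 and 0.838 CPM in Hep3B and from 1.21 and 1.76 CPM to 0.366 and 0 CPM in SNU-398. The 4 higher in both were DNAJA2, DNAJB12, HSPA2 and HSPB1.

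In Hep3B the DNAJC and DNAJB families split more evenly than CCT, but DNAJC did not in SNU-398. In DNAJC 12 of 28 genes were lower (42.9%, against 36.1% of all genes) and 8 higher (28.6%, against 32.8%) in Hep3B. In SNU-398 10 were lower (35.7%, against 23.6%) and 2 higher (7.14%, against 22.4%). In DNAJB 5 of 12 were lower (41.7%) and 4 higher (33.3%) in Hep3B, and 1 lower (8.33%) and 2 higher (16.7%) in SNU-398. DNAJB6 went from 3.12 and 3.11 CPM to 1.07 and 1.17 CPM in Hep3B (−1.48) and was not called in SNU-398 (0.29). DNAJC18 went from 3.38 and 4.33 CPM to 0.916 and 0.697 CPM in SNU-398 (−2.19) and was not called in Hep3B (−0.32). Each of these sums was mostly 1 guide, with 91.2% and 94.3% of the T0 counts. DNAJC11 was lower in SNU-398 (−0.75) and not called in Hep3B (−0.04). DNAJC12, DNAJC30 and the testis gene DNAJB13 were higher in SNU-398 (0.60, 0.45 and 0.41), and DNAJC12 and DNAJC30 were lower in Hep3B (−0.58 and −0.75). Of the small heat shock genes, 2 of 8 were lower (25%, against 36.1% of all genes) and 5 higher (62.5%, against 32.8%) in Hep3B. In SNU-398 2 were lower and 2 higher (25% each, against 23.6% and 22.4%). There HSPB6, known from muscle, went from 8.05 and 6.83 CPM to 12.4 and 11.3 CPM (0.67). Without T0 replicate 1 the SNU-398 calls of DNAJC11, DNAJC12, DNAJC30 and DNAJB13 were lost (−0.60, 0.48, 0.55 and 0.35).

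The extremes of both lines were genes with few counts. DNAJC3 in Hep3B had 0.897 and 0.940 CPM at T0 and 0 and 0.168 CPM at T1. Pooled over libraries these were 68 and 2 counts, a 16.5-fold lower ratio for the pooled library sizes with a 95% exact interval from counting error of 2.77 to 671, computed on halved counts because most screen counts are even. DNAJC22 in SNU-398 had 88 counts at T0 and 0 at T1, which makes it at least 5.98-fold lower with a floor of 3 counts per library, whereas in Hep3B it was higher (1.57), a call lost without T0 replicate 1 or T1 replicate 1 (1.42 and 1.16). DNAJB14, DNAJC15 and HSPB7 were higher in Hep3B (1.38, 1.25 and 0.87), and each turned negative without its most abundant guide. Chaperone partners gave 24 lower and 14 higher of 62 in Hep3B (38.7% and 22.6%, against 36.1% and 32.8% of all genes) and 16 lower and 8 higher in SNU-398 (25.8% and 12.9%, against 23.6% and 22.4%). BAG3, an HSP70 exchange factor of the autophagy route, was at least 11.4-fold lower in Hep3B and fell by 1.5 on the log2 scale in SNU-398, and FKBP8, a mitochondrial HSP90 cochaperone, was at least 4.28-fold lower in Hep3B and at least 7.07-fold lower in SNU-398. TBCD, a tubulin cofactor that acts after CCT, fell by 2.62 on the log2 scale in Hep3B and by 1.63 in SNU-398. FKBP8 in both lines and TBCD in SNU-398 had no guide with a mean T0 count of at least 30. BAG3, FKBP8 and TBCD were not called by NormZ in either line. Among partners that were higher, BAG2, an inhibitor of the ubiquitin ligase CHIP, went from 4.10 and 4.12 CPM to 11.8 and 9.56 CPM in Hep3B (1.40) and was not called in SNU-398 (0.01). AHSA2 went from 11.2 and 10.3 CPM to 22.6 and 22.5 CPM in Hep3B (1.07) and was not called in SNU-398 (0.05). BAG5, another HSP70 exchange factor, was called higher in both lines on the sum (0.87 and 0.56). In Hep3B, however, BAG5 stood at −0.32 without its most abundant guide. In SNU-398 its only guide with a mean T0 count of at least 30 was lower at T1. BAG1 was higher in SNU-398 (0.74), where a single guide held 96.3% of its T0 counts.

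A further comparison asked whether the T0 to T1 change differed between the lines. By an edgeR interaction term 44 of 79 members differed, against 58.8% of the 17959 genes tested. The difference was 1.22 for TCP1, 1.53 for HSPA9, 0.88 for HSP90B1 and 2.47 for CCT7 (SNU-398 minus Hep3B), and −0.39 for CCT2. By the difference of NormZ values none of the 79 members differed at an adjusted p under 0.05, where edgeR gave 44.

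The last comparison asked which chaperone knockouts were depleted or enriched under each inhibitor, against T1. The study names a gene a resister where NormZ is low, meaning that guides against it are depleted under the drug, and a sensitizer where NormZ is high. In Hep3B guides against HSPA8 and TCP1 were depleted and guides against HSPB3 were enriched in most of the 6 screens, and these genes made most of the calls. Over 474 pairs of gene and inhibitor there were 11 resister calls in 4 genes (2.32%, against 1.76% of all pairs) and 6 sensitizer calls in 2 genes (1.27%, against 0.827%) at a one-sided p under 0.01. In SNU-398 there were 7 resister calls in 6 genes (1.48%, against 1.6%) and 7 sensitizer calls in 5 genes (1.48%, against 0.852%). By edgeR on counts summed per gene, where a single abundant guide can carry a gene, far more pairs passed. In Hep3B 212 pairs were lower (44.7%, against 37.5% of all pairs) and 121 higher (25.5%, against 32.8%), and in SNU-398 81 were lower (17.1%, against 15.1%) and 66 higher (13.9%, against 13.3%). Without Erastin replicate 2 the SNU-398 counts were 131 and 124. The common coefficient of variation, fitted over all genes, was then 0.0516 instead of 0.123. The matching shares of all pairs were not computed, so this rise cannot be called particular to the members. The median NormZ was −0.06 in Hep3B and 0.01 in SNU-398.

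**Figure D4:**
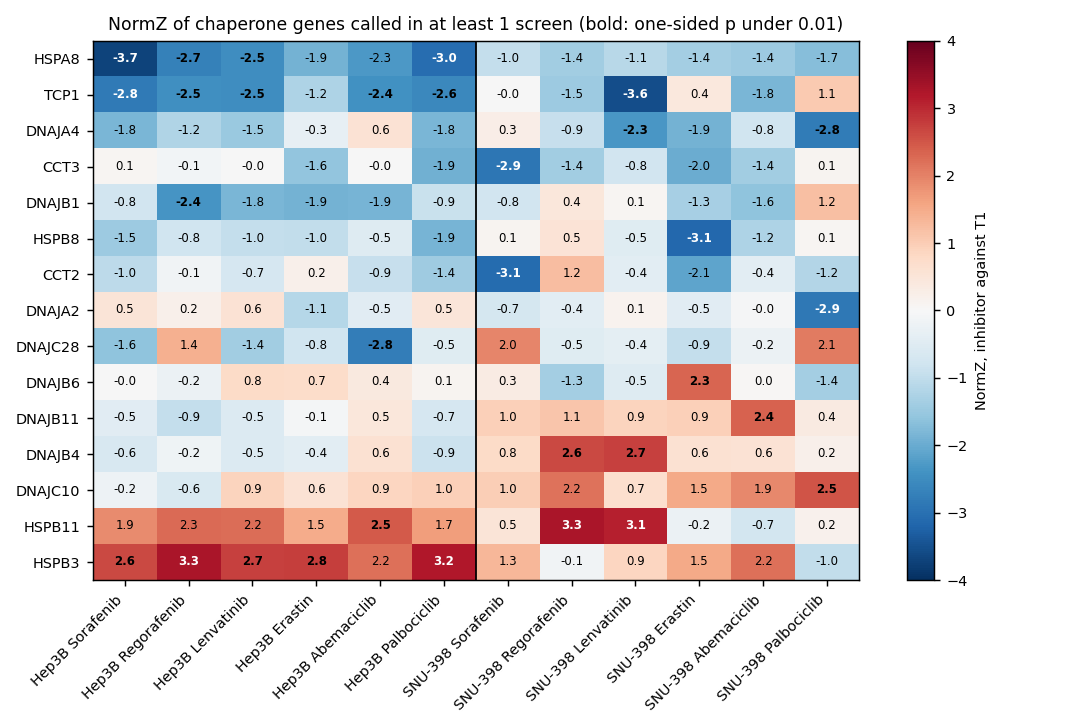
NormZ of the chaperone genes with a call is shown by color and number for the 6 inhibitor screens of each line, with calls in bold. In Hep3B HSPA8 and TCP1 are negative and HSPB3 is positive in all 6 screens, while in SNU-398 most called genes have a call in a single screen, and DNAJB4, HSPB11 and DNAJA4 have calls in a pair of screens.

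HSPA8, the constitutive HSP70, had NormZ values in Hep3B of −3.71 for Sorafenib, −2.71 for Regorafenib, −2.48 for Lenvatinib, −1.88 for Erastin, −2.29 for Abemaciclib and −3.03 for Palbociclib, and 4 of these were resister calls. Its most abundant guide had 12.3 and 10.4 CPM in T1 and 0.29 and 0.408 CPM under Sorafenib. Its other guides had at most 2.96 CPM in T1 and were at 0 in both Sorafenib libraries, except the next most abundant, at 0 and 0.326 CPM. All 4 guides were thus lower under Sorafenib, but under Erastin the least abundant guide was higher, at 3.57 and 1.89 CPM against 0.922 and 0.623 CPM. TCP1 had NormZ values of −2.84, −2.47, −2.48, −1.24, −2.41 and −2.58 in the same order of inhibitors, with a call for each except Erastin. Its 3 guides had 5.84 and 5.14, 1.23 and 2.18, and 2.15 and 2.8 CPM in T1, and none exceeded 0.326 CPM under Sorafenib. Both genes were already lower at T1 than at T0, and counts of this size leave little room above 0. With guides under a mean vehicle count of 30 left out, the 11 resister calls of Hep3B became 2.

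HSPB3, a small heat shock protein of muscle, had NormZ values in Hep3B of 2.64 for Sorafenib, 3.25 for Regorafenib, 2.73 for Lenvatinib, 2.77 for Erastin, 2.19 for Abemaciclib and 3.19 for Palbociclib, with 5 sensitizer calls. Its 4 guides had 14.1 to 20.8 CPM in T1, and under Sorafenib the most enriched had 64.0 and 62.3 CPM. All 4 were higher under Sorafenib, Regorafenib, Lenvatinib, Erastin and Palbociclib, and 1 of them was not higher under Abemaciclib, at 12.8 and 13.8 CPM against 14.1 and 16.7 CPM. HSPB3 RNA was not tested for want of counts. The remaining Hep3B calls were DNAJB1 for Regorafenib (−2.35), DNAJC28 for Abemaciclib (−2.76) and HSPB11, a subunit of the ciliary transport complex despite its name, for Abemaciclib (2.46). HSPB11 was positive in all 6 Hep3B screens, between 1.5 and 2.46.

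**Figure D5:**
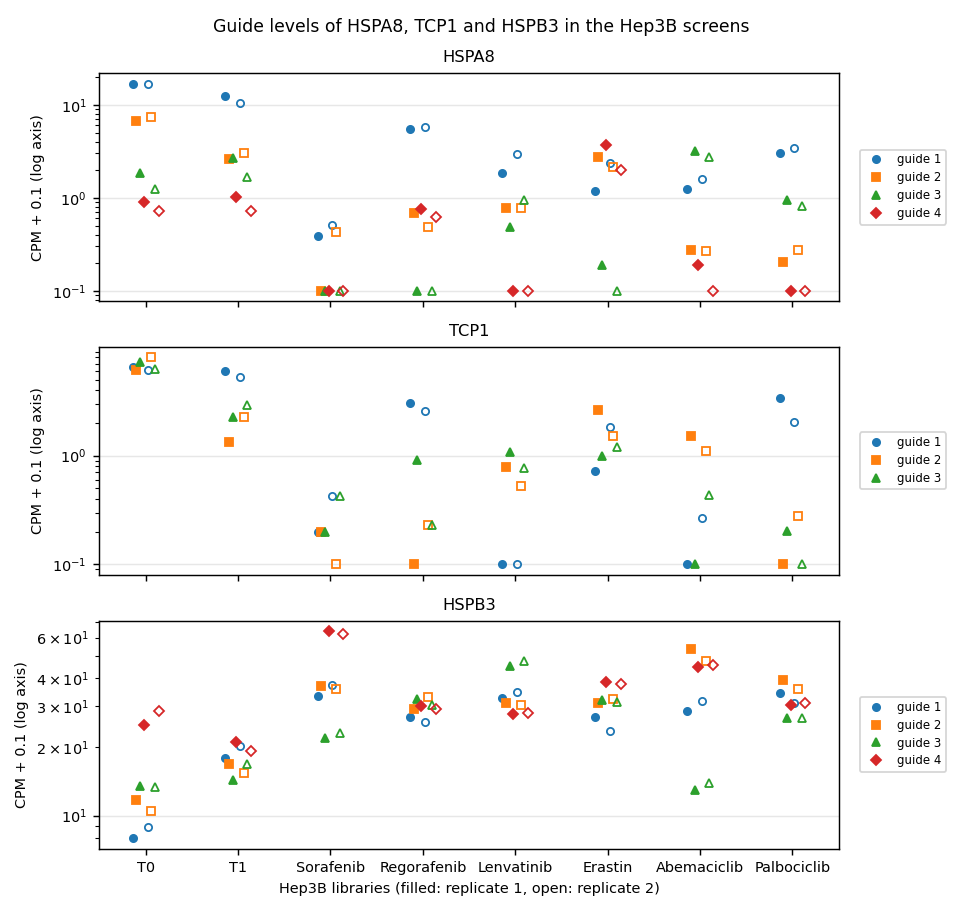
CPM (plus 0.1, log axis) of each guide against HSPA8, TCP1 and HSPB3 is plotted in the 16 Hep3B libraries, in groups T0, T1 and the 6 inhibitors, with replicate 1 filled and replicate 2 open. HSPA8 and TCP1 guides fall toward 0 under Sorafenib, and HSPB3 guides lie above their T1 values of 14.1 to 20.8 CPM in most inhibitor libraries.

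In SNU-398 the calls were spread over other genes. TCP1 was a resister call for Lenvatinib only (−3.56) and stood at −0.02 for Sorafenib, −1.46 for Regorafenib, 0.41 for Erastin, −1.83 for Abemaciclib and 1.05 for Palbociclib. Its guides did not move together, since 1 guide at 11.1 and 12.9 CPM in T1 had 1.26 and 1.29 CPM under Lenvatinib but 30.98 and 37.3 CPM under Palbociclib. CCT2 and CCT3 were resister calls for Sorafenib (−3.09 and −2.90), and the most abundant CCT2 guide went from 15.2 and 17.7 CPM to 4.86 and 5.29 CPM. DNAJA4, a cytosolic type I cochaperone, was called for Lenvatinib (−2.34) and Palbociclib (−2.79), and DNAJA2 for Palbociclib (−2.86). HSPB8, a partner of BAG3, was called for Erastin at −3.14, and this call was lost without Erastin replicate 2 (−2.0). Without that library CCT2 and CCT3 were also resister calls for Erastin, at −2.72 and −2.47 against −2.12 and −1.98 with it, and the resister calls of SNU-398 were 8.

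Sensitizer calls in SNU-398 included HSPB11 for Regorafenib (3.25) and Lenvatinib (3.12) and DNAJB4, an HSP40 of the cytosol, for the same inhibitors (2.63 and 2.74). Both HSPB11 guides rose, from 94.8 and 85.4 CPM in T1 to 131 and 135 CPM under Lenvatinib and from 84.4 and 89.4 CPM to 148 and 146 CPM. DNAJC10 was called for Palbociclib (2.53), DNAJB11 for Abemaciclib (2.35) and DNAJB6 for Erastin (2.33, and 2.90 without Erastin replicate 2). HSPB11 was thus called in both lines, with calls for different inhibitors. In Hep3B it stood at 2.26 for Regorafenib and 2.24 for Lenvatinib, narrowly short of a call, so the inhibitors do not separate the lines.

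No difference between lines held for any inhibitor. Of 474 differences in NormZ, 20 had a p under 0.05 and none an adjusted p under 0.05, and the smallest adjusted p was 0.734, for HSPB3 under Palbociclib. Without Erastin replicate 2 of SNU-398 these values were 21 and 0.699. Line differences in the HSPA8, TCP1 and HSPB3 responses are therefore not shown by these data.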

How the data were processed

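Guide counts of 32 screen libraries and gene counts of 6 RNA-seq libraries were used as the authors deposited them; the screen counts came from Bowtie2 alignment, for which no version is given in the sources used here, and the RNA-seq counts from HISAT2 (version 2.0.5) and featureCounts (version 1.5.0-p3). The deposited FPKM values, which the authors computed from gene length and total reads, gave levels between genes. Per the labels the RNA-seq build was mm9, but the gene identifiers and positions in the deposited table are human and match GRCh38. Columns of the authors' own fold changes and p-values were not used.

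RNA-seq counts, and guide counts summed per gene, were tested with edgeR (version 4.0.16, R 4.3.3) by quasi-likelihood after TMM scaling and filterByExpr, with Benjamini-Hochberg adjusted p under 0.05. NormZ followed the DrugZ steps: scaling to 10000000 counts, a pseudocount of 5, log2 ratios, a spread over windows of 1000 guides of like abundance, and a one-sided p under 0.01. Inhibitor libraries were set against the same-numbered T1 libraries, as that tool does by default. CPM in the text of the edgeR comparisons use effective library sizes. Promoters came from RefSeq, for 74 of 85 symbols.

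The genes, lists and tests were chosen with earlier results of these data known. Named RNA-seq genes are the 10 largest rises and 10 largest falls among called members of at least 10 CPM, with the main HSP70, HSP90 and HSP60 genes and HSF1. Named T1 genes are the 8 lowest and 5 highest called members of each line, the CCT genes and the main HSP70 and HSP90 genes. Named inhibitor genes are those called in 2 or more screens and the 3 lowest and 3 highest NormZ of each line. Other members are named where the calls of a whole family or screen are listed, and were chosen after their values were seen. The statistics were tested on simulated data. Counting intervals and floors (3 counts) cover counting error only. Other scalings, filters, tests and left-out libraries were tried, among them DESeq2 (version 1.42.0) and limma (version 3.58.1).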

Additional observations from a re-analysis of the deposited data

Results flagged for a closer look

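The change from T0 to T1 differed between the lines by edgeR's interaction term (adjusted p under 0.05) for these named chaperone genes, given as the log2 fold change in SNU-398 minus that in Hep3B. Among CCT genes the difference was −0.39 for CCT2, 0.34 for CCT3, 1.95 for CCT4, −0.59 for CCT6B, 2.47 for CCT7, 0.58 for CCT8, 2.01 for CCT8L2 and 1.22 for TCP1. Among HSP70 and HSP90 genes it was −1.57 for HSPA5, 0.37 for HSPA8, 1.53 for HSPA9 and 0.88 for HSP90B1. Among J-domain genes it was 1.78 for DNAJB6, −2.07 for DNAJB9, 3.66 for DNAJC3, −0.71 for DNAJC11, 1.18 for DNAJC12, −4.09 for DNAJC15, −1.85 for DNAJC18, −9.50 for DNAJC22 (a fitted value that depends on the prior count, since SNU-398 had 0 counts at T1) and 1.18 for DNAJC30. For the small heat shock genes HSPB6 and HSPB7 it was 0.99 and −0.64. Such a difference was called for 58.8% of all genes, and none of these genes differed by NormZ.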

How the results depend on the processing

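Of 112 comparisons of a member count with an alternative, 88 stayed within 1.5 times the reported count and 24 moved; of 843 comparisons for single genes 705 kept their call, 131 lost it in the same direction and 7 turned. In RNA-seq the 8 lower members were 5 by DESeq2 and 5 by limma on log2(FPKM + 1), and leaving out a library gave 15 to 22 higher and 4 to 8 lower. For T1 against T0 in Hep3B, NormZ called 0 lower and 0 higher, and leaving out a library gave 33 to 39 lower and 18 to 23 higher. In SNU-398 the 26 lower were 16 by DESeq2, 7 with all 16 libraries in the fit and 2 by NormZ, and the 10 higher were 1 with all 16 libraries and 0 by NormZ; leaving out a library gave 14 to 24 lower and 4 to 12 higher. The common coefficient of variation was 0.123 with all SNU-398 libraries and 0.0516 without Erastin replicate 2. For inhibitors in Hep3B, resister calls were 2 with guides of at least 30 vehicle counts and 212 by edgeR on summed counts, and sensitizer calls were 12 with median-of-ratios scaling and 121 by edgeR; leaving out a replicate gave 8 to 9 and 6. In SNU-398 sensitizer calls were 3 with guides of at least 30 counts, edgeR gave 81 and 66, or 131 and 124 without Erastin replicate 2, and leaving out a replicate gave 5 to 10 resister and 4 to 7 sensitizer calls. The 44 line differences were 0 by NormZ. Without the most abundant guide, log2 fold changes turned in Hep3B to 0.67 (CCT2), 0.89 (CCT5), −1.37 (CCT6B), −6.67 (DNAJB14), −6.75 (DNAJC15) and −7.56 (HSPB7), and in SNU-398 to 0.68 (DNAJC15). The causes were not tested.

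Replicate numbers did not pair the libraries (correlations of same-numbered deviations from −0.0101 to 0.0262 in Hep3B, −0.0088 to 0.0955 in SNU-398 and −0.0062 to 0.123 in RNA-seq). With a replicate block, RNA-seq gave 24 higher and 8 lower, Hep3B 39 lower and 21 higher, and SNU-398 26 lower and 9 higher; without the block, NormZ gave 11 resister and 6 sensitizer calls in Hep3B and 7 and 6 in SNU-398.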
